A study of Mus musculus with 6 samples.

Results

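The collagen chain genes encode the polypeptides that wind around each other into collagen molecules, and their RNA was measured in mouse bone marrow cells sorted for green fluorescent protein (GFP) and in the whole marrow those cells came from. Members were all genes whose platform symbol has the form of a collagen chain (Col, a type number, a, a chain number), read from probe sets that carry 1 symbol. This gave 42 genes and 82 probe sets, of 18193 genes and 34945 single-symbol probe sets in all. RefSeq lists 44 such genes, and Col6a6 and Col28a1 were not analysed here. There were 15 members with 1 probe set and 27 with several, at most 4, and the one with the highest mean over the 6 arrays stood for the gene.

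A collagen chain has a long helical stretch in which glycine recurs at a fixed spacing, and chains of the same or of related types join in a triple helix. Fibrillar chains form the banded fibres of bone, tendon and skin, fibril-associated chains sit on those fibres, and others build basement membranes or beaded filaments or span the cell membrane. In bone marrow, collagens are known mainly as products of osteoblasts, stromal cells and vessel walls, while blood cells are known for binding and degrading them.

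The compared groups were marrow cells sorted for GFP (sorted, n = 3) and unsorted whole marrow (presort, n = 3). Every animal, in both groups, was an adult hemizygote of the line Tg(Ren1-GFP)2Kwg, in which the renin transgene directs GFP, at an age of 3 to 6 months. For each replicate, femur marrow of 4 to 5 males and females was combined, so sorted and presort samples of 1 number share a pool. The GFP gate was set so that 0.1% of cells without the transgene fell inside it, after scatter gates against red cells, debris and doublets. Every sample was hybridised to an Affymetrix 3' expression array of its own. Levels are log2 of the authors' intensities, comparable between samples of 1 probe set and not between probe sets. With 3 arrays a group, their number limits the precision.

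Most collagen chains stayed at or under a background level in both groups. With no detection calls in the files, a background level was set at the 95th percentile of 134 probe sets of sensory receptors, keratin-associated proteins and lens crystallins, families known from sensory tissue, hair and lens; it was 6.51 (an intensity of 91.2). A chain counted as expressed in a group where all 3 arrays exceeded this level, and as near background where none of the 6 arrays did. By this measure 8 chains were expressed in sorted samples and 7 in presort samples, and 5 of them (Col4a6, Col5a1, Col6a2, Col16a1 and Col27a1) in both. Of all genes 51.0% were expressed in sorted and 53.6% in presort samples, as were 6 and 5 of the 134 background probe sets. Col5a3, Col22a1 and Col25a1 were expressed in sorted samples only, and Col14a1 and Col20a1 in presort samples only. The other probe sets of Col4a6, Col20a1 and Col22a1 were near background, and that of Col6a2 exceeded the level on some arrays only. Near background were 28 of the 42 chains, where 40.4% of all genes were, and Col1a2, Col6a4, Col7a1 and Col9a1 lay above the level on some arrays. With the level at the 90th percentile (5.91) the expressed chains numbered 16 in sorted and 14 in presort samples, at the 99th (7.38) 2 and 1, and with all probe sets of a gene averaged 5 and 4. The chains near background then numbered 20, 36 and 34. Because levels are not comparable between probe sets, this division is a rough one. The level came from every background probe set, while a chain was judged by its brightest probe set.

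**Figure D1:**
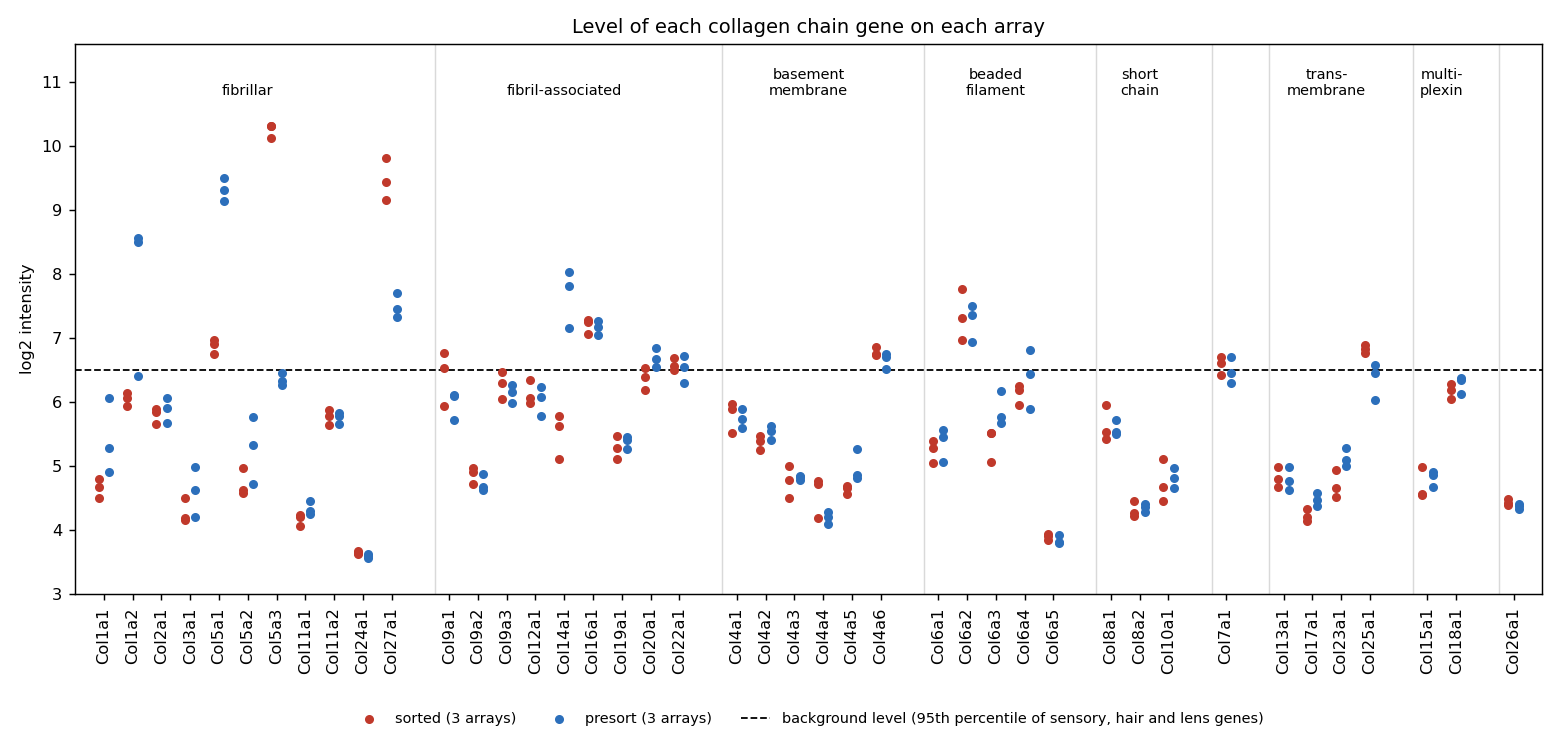
Log2 intensity (vertical axis) of the probe set that stands for each of the 42 collagen chain genes (horizontal axis), grouped by type of collagen; each point is 1 array, red for the 3 sorted and blue for the 3 presort arrays, and the dashed line is the background level of 6.51. Most chains lie under the line in both groups, while Col5a3 and Col27a1 are higher in sorted arrays and Col5a1, Col14a1 and Col1a2 lower.

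In sorted samples 3 chains rose (Col5a3, Col27a1 and Col25a1) and 3 fell (Col5a1, Col14a1 and Col1a2) relative to presort samples (limma, Benjamini-Hochberg adjusted p under 0.05 over 18193 genes), and 36 did not pass. The 6 called chains are 14.3% of the members, where 32.6% of all genes were called, 14.5% higher and 18.1% lower. These shares come from the fit without the pairing by pool. The median difference was -0.05 on the log2 scale over the 42 chains and -0.0021 over all genes. Centring each array on its median would raise every difference by 0.23, so negative differences smaller than that in size have no settled sign. Of the 36 chains that did not pass, 20 changed sign under at least 1 of the alternatives run. With the replicate number as a block the same 6 chains passed, joined by Col9a1 among the higher and by Col1a1, Col6a3 and Col23a1 among the lower, which made 4 higher and 6 lower. The share of all genes called with that block is not given here. Without presort replicate 1, or without pool 1, there were 5 lower chains, with Col1a1 and Col5a2 beside the 3 named above. Col5a3, Col27a1, Col5a1 and Col14a1 were called under all 19 alternatives run, Col1a2 under 9 and Col25a1 under 6. In such bulk samples, fewer cells of a type and less RNA per cell cannot be told apart.

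**Figure D2:**
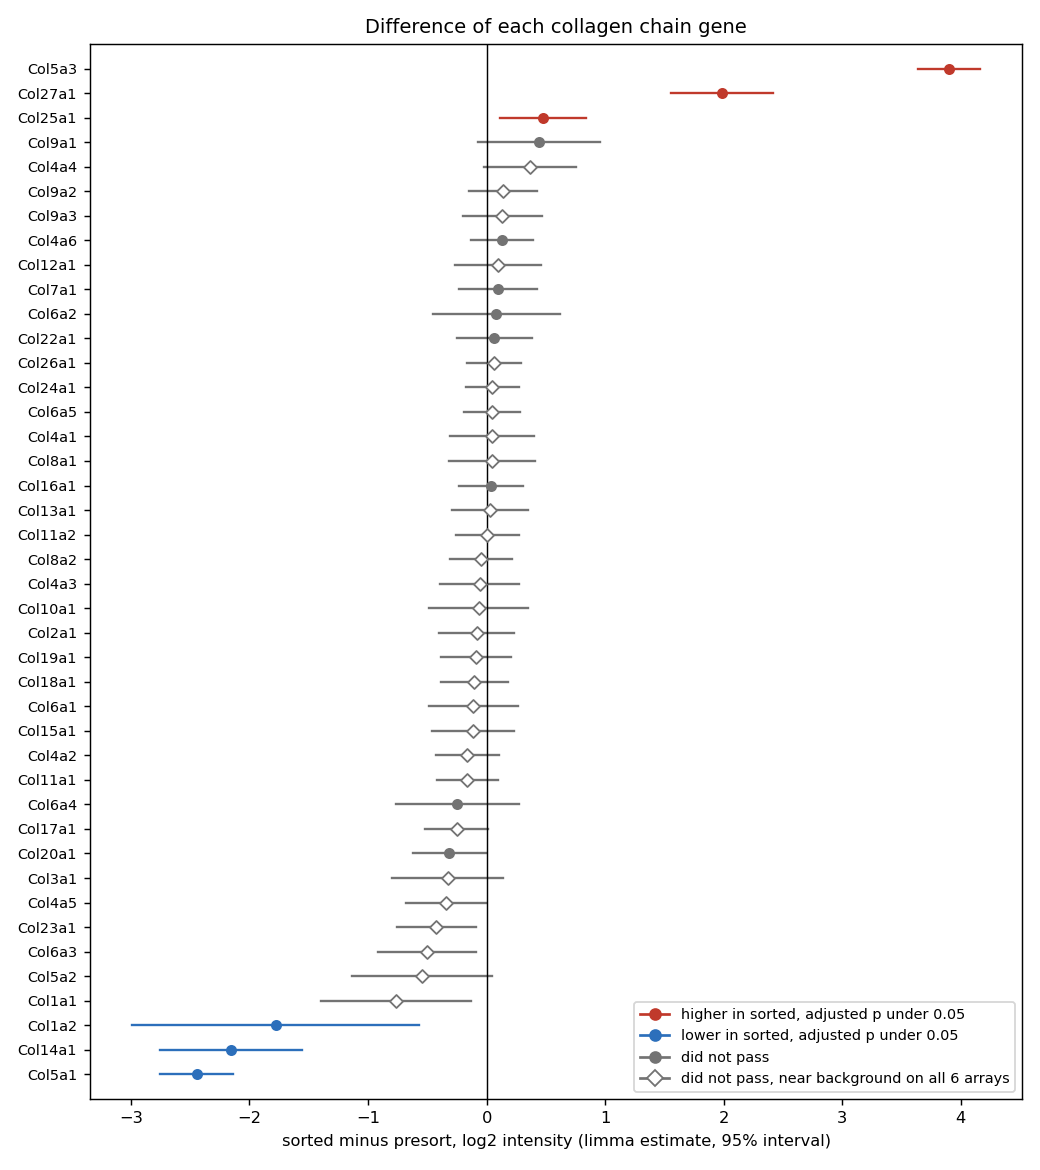
Difference in log2 intensity, sorted minus presort (horizontal axis), of the 42 collagen chain genes in order of size (vertical axis); points are limma estimates, bars their 95% intervals, and open diamonds are chains near background on all 6 arrays. Col5a3 at 3.90 and Col27a1 at 1.98 lie farthest to the right, and Col5a1, Col14a1 and Col1a2 at -2.45, -2.15 and -1.78 farthest to the left.

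The chains of type V collagen moved in opposite directions. Type V is a minor fibrillar collagen that is built into type I fibres and limits their width, and its 3 genes encode chains that combine in more than 1 way. Col5a3, which encodes its least widespread chain, had levels of 10.31, 10.13 and 10.32 in sorted replicates 1, 2 and 3, against 6.28, 6.46 and 6.33 in presort replicates 1, 2 and 3. The presort arrays all lay just under the background level, the sorted arrays lay far above it, and the groups did not overlap. The difference was 3.90 ± 0.11 (SE, log2; 14.9-fold; limma adjusted p = 1.13e-05), with 4.04, 3.67 and 3.99 in pools 1, 2 and 3, and no other of the 18193 genes had a lower p. The presort signal was at background, where this scale understates changes.

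Col5a1, which encodes the chain found in most type V molecules, was lower instead. It stood at 6.76, 6.91 and 6.98 in sorted samples, against 9.51, 9.32 and 9.15 in presort samples. The groups did not overlap, and the sorted arrays were only just above the background level. The difference was -2.45 ± 0.13 (SE, log2; limma adjusted p = 1.89e-05), a presort level 5.45-fold that of sorted samples, with -2.76, -2.42 and -2.16 in pools 1, 2 and 3. Col5a2, which encodes the usual partner chain, was near background on all 6 arrays, at 4.58, 4.64 and 4.97 in sorted and 4.73, 5.76 and 5.33 in presort samples. Its groups overlapped, and the difference of -0.54 ± 0.25 (SE, log2) did not pass (limma adjusted p = 0.154).

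The start regions of Col5a3, Col5a1 and Col27a1 are shown because these genes had the chains called in all alternatives for which a window was at hand. They come from RefSeq (build GRCm38.p6), run from 250 bases before to 50 bases after the annotated start, and read 5′ to 3′ along the gene. Capitals mark the letters of the GC box (GGGCGG) and those of the box named after its letters CCAAT, both searched on either strand.
Col5a3 (chr9:20815018-20815317, minus strand): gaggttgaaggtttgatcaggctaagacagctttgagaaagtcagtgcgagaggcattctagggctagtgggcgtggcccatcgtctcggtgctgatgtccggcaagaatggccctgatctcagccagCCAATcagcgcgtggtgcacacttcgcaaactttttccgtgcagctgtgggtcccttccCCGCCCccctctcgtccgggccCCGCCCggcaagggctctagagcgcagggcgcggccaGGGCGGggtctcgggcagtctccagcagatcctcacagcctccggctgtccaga
Col5a1 (chr2:27886175-27886474, plus strand): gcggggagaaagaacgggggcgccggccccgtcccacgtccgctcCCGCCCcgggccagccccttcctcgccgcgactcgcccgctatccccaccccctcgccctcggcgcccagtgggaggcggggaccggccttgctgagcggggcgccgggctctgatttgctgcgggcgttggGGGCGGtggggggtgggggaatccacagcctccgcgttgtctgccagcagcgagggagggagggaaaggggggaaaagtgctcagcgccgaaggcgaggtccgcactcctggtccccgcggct
Col27a1 (chr4:63215162-63215461, plus strand): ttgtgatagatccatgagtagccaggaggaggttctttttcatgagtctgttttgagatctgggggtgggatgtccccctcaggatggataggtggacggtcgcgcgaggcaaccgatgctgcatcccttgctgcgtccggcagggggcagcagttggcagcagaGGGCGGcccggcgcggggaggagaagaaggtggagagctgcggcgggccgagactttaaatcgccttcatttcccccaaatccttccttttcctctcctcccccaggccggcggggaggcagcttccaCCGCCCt

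The Col5a3 window held 1 CCAAT, which began at position -122, and 3 GC boxes, which began at -63, -41 and -4 relative to the start. The windows of Col5a1 and Col27a1 held 2 GC boxes each and no CCAAT. Of all 32851 RefSeq windows of this length, 37.4% held CCAAT and 35.7% held GGGCGG on either strand. Of 36 collagen windows, a count that left out 1 chromosome, 13 held CCAAT and 22 held GGGCGG. With no chromosome left out, 33 of the 42 chains had a window. The letters CAGNTG of the E-box (51.4% of all windows) stood once in the windows of Col5a3 and Col27a1 and not in that of Col5a1. TATAAA (13.6% of all windows), CCCNNGGG of the EBF motif (13.7%) and TGANTCA of the AP-1 motif (7.8%) stood in none of the 3. The windows were rich in bases G and C, at 63.3% in Col5a3, 75.0% in Col5a1 and 61.7% in Col27a1, where the median of all windows was 52.7%. A match describes letters and not a site in use, and Col14a1 was matched to no window.

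Probe sets of a gene read different stretches of its transcripts, and those of the type V genes were compared for this reason. All 3 probe sets of Col5a1 fell. Beside 1434479_at, which stands for the gene, 1416740_at fell by 2.77 ± 0.21 and 1416741_at by 1.01 ± 0.13 (SE, log2; limma adjusted p = 9.8e-05 and 0.00104 over 34945 probe sets, of which 28.8% were called, 13.5% higher and 15.3% lower). In 1416740_at the levels were 5.96, 6.23 and 5.54 in sorted and 8.94, 8.75 and 8.37 in presort samples, with all sorted arrays under the background level and all presort arrays above it. Col5a3 was called on 1419703_at, the probe set above, and not on its other one. That other one, 1425984_at, was near background on every array, at 4.99, 4.67 and 4.97 in sorted and 4.54, 4.75 and 4.65 in presort samples (0.23 ± 0.13, SE, log2; limma adjusted p = 0.252). With the mean of both probe sets the difference of Col5a3 was 2.06 in place of 3.90. Neither probe set of Col5a2 passed, at -0.54 ± 0.26 for 1422437_at and -0.19 ± 0.12 for 1450625_at (SE, log2).

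**Figure D3:**
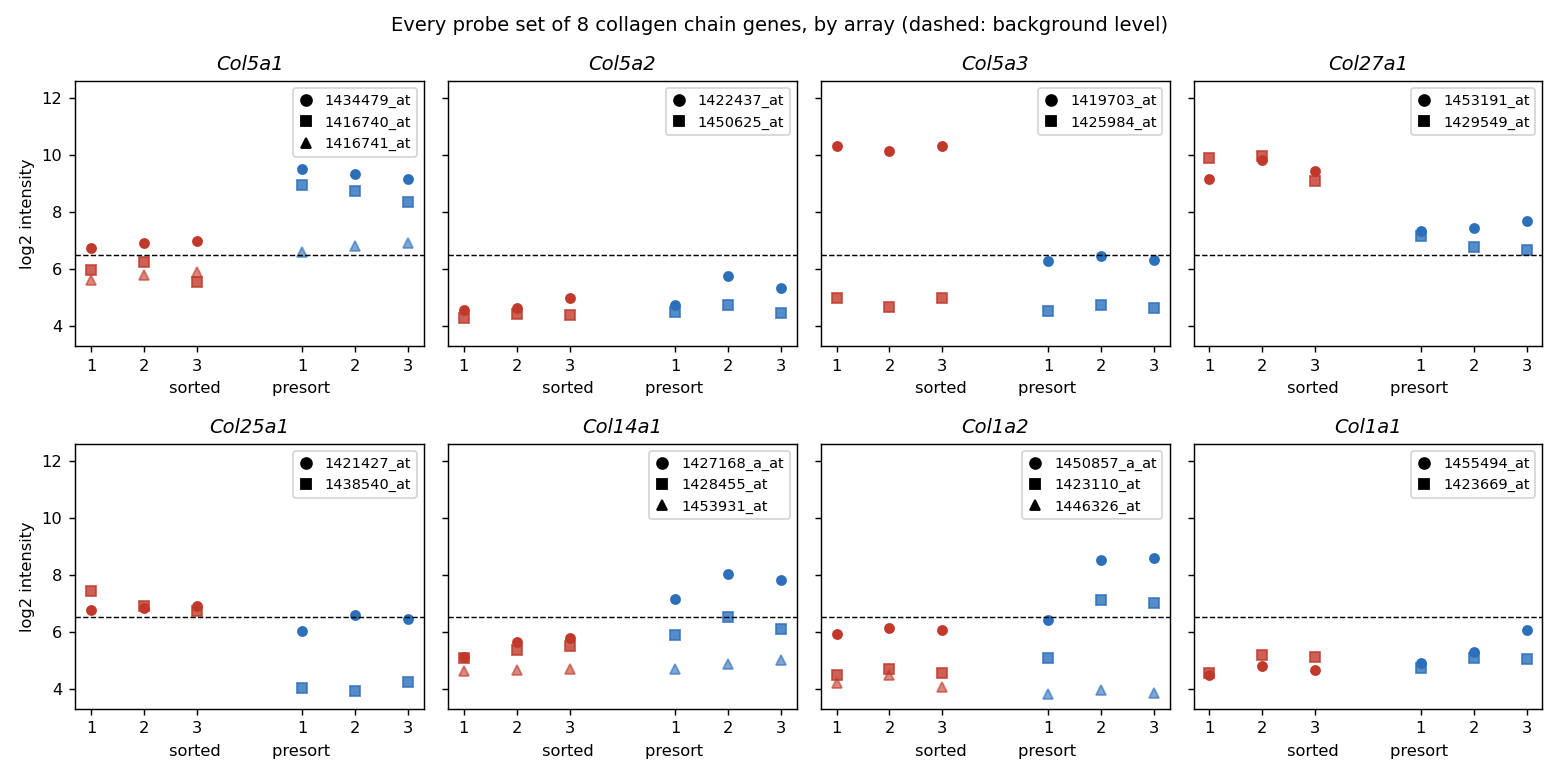
Log2 intensity (vertical axis) of every probe set of 8 collagen chain genes on the 3 sorted arrays (red, left in each panel) and the 3 presort arrays (blue, right); symbols tell the probe sets of a gene apart and the dashed line is the background level of 6.51. Both probe sets of Col27a1 are higher and all 3 of Col5a1 lower in sorted arrays, while the probe sets of Col5a3 and of Col25a1 differ in how far the groups lie apart.

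Among the other fibrillar chains Col27a1 rose and Col1a2 fell. Col27a1, which encodes a fibrillar chain known from cartilage, stood at 9.16, 9.82 and 9.45 in sorted samples, against 7.33, 7.45 and 7.70 in presort samples. Both groups were above background on every array and did not overlap. The difference was 1.98 ± 0.19 (SE, log2; 3.95-fold; limma adjusted p = 0.000121), with 1.83, 2.37 and 1.75 in pools 1, 2 and 3. Its other probe set, 1429549_at, stood at 9.90, 9.97 and 9.08 in sorted and 7.17, 6.77 and 6.69 in presort samples, and also rose (2.78 ± 0.26, SE, log2; limma adjusted p = 0.000208), with 2.73, 3.20 and 2.40 in the pools.

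The genes of type I collagen, the main collagen of bone matrix, were under the background level on all sorted arrays, and Col1a1 was so on the presort arrays too. Col1a2 stood at 5.94, 6.14 and 6.07 in sorted replicates 1, 2 and 3, all under the background level, against 6.41, 8.51 and 8.57 in presort replicates 1, 2 and 3. Presort replicate 1 was close to the sorted samples, and presort replicates 2 and 3 were well above them. The difference was -1.78 ± 0.52 (SE, log2; limma adjusted p = 0.0328), with -0.47, -2.36 and -2.51 in pools 1, 2 and 3. The call was lost without any 1 of the sorted replicates, without presort replicate 2 or 3, and without pool 2 or 3 (adjusted p = 0.0694 to 0.217), while without presort replicate 1 the difference was -2.49 and passed (adjusted p = 8.58e-05). Of its other probe sets, 1423110_at took the same course, at 4.48, 4.71 and 4.55 in sorted and 5.07, 7.10 and 7.03 in presort samples. The remaining one, 1446326_at, was near background and went the other way without passing (0.38 ± 0.13, SE, log2; limma adjusted p = 0.0704). It lay at 4.21, 4.48 and 4.08 in sorted and 3.83, 3.96 and 3.84 in presort samples, without overlap.

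Col1a1, which encodes the other type I chain, was near background on all 6 arrays. It stood at 4.50, 4.80 and 4.67 in sorted and 4.91, 5.29 and 6.07 in presort samples, without overlap, and the difference of -0.77 ± 0.27 (SE, log2) did not pass (limma adjusted p = 0.0675, and 0.0287 with the replicate block). Its other probe set, 1423669_at, lay at 4.56, 5.17 and 5.10 in sorted and 4.75, 5.08 and 5.03 in presort samples. There the groups overlapped and the difference was -0.01 ± 0.19 (SE, log2; limma adjusted p = 0.984). Col3a1, whose product forms reticular fibres with type I collagen, was near background too, at -0.33 ± 0.20 (SE, log2). Col2a1, Col11a1 and Col11a2, known from cartilage, and Col24a1, known from developing bone, were also near background, with differences from -0.16 to 0.05. Of the 11 fibrillar chains 7 were near background, and 2 were higher, 2 lower and 7 not called. The share called was 36.4%, near the 32.6% of all genes.

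Of the 9 fibril-associated chains 1 was called (11.1%, where 32.6% of all genes were). Col14a1, whose product sits on type I fibres, stood at 5.12, 5.64 and 5.79 in sorted samples, against 7.16, 8.03 and 7.81 in presort samples. The sorted arrays were all under the background level and the presort arrays all above it. The difference was -2.15 ± 0.26 (SE, log2; limma adjusted p = 0.000409), with -2.04, -2.40 and -2.02 in pools 1, 2 and 3, and with the mean of its 3 probe sets it was -1.07. The probe set 1428455_at was lower as well, at 5.07, 5.38 and 5.49 in sorted and 5.88, 6.54 and 6.10 in presort samples (-0.86 ± 0.19, SE, log2; limma adjusted p = 0.0131), and 1453931_at, near background, did not pass.

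Col16a1, which encodes another fibril-associated chain, was expressed in both groups at nearly the same level, 7.07, 7.25 and 7.29 in sorted and 7.05, 7.27 and 7.18 in presort samples. Its difference of 0.04 had a 95% interval of -0.23 to 0.31. Col22a1, known from tissue junctions such as that of muscle and tendon, lay at the background level, at 6.57, 6.51 and 6.70 in sorted and 6.30, 6.55 and 6.73 in presort samples. Col20a1 did so too, at 6.40, 6.20 and 6.54 in sorted and 6.56, 6.68 and 6.85 in presort samples. The groups of Col22a1 overlapped and those of Col20a1 did not, and neither difference passed (0.06 and -0.31). Col9a1, which encodes a type IX chain of cartilage, stood at 5.94, 6.78 and 6.54 in sorted and 5.73, 6.12 and 6.09 in presort samples, with overlap (0.44 ± 0.22, SE, log2; limma adjusted p = 0.189, and 0.0379 with the replicate block). Col9a2, Col9a3, Col12a1 and Col19a1 were near background.

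Of the 4 membrane-spanning chains Col25a1 was called (25.0%, where 32.6% of all genes were), and its probe sets gave different sizes of change. Col25a1 encodes a transmembrane collagen known from neurons and from amyloid plaques. The probe set that stands for it, 1421427_at, lay at 6.78, 6.83 and 6.90 in sorted and 6.03, 6.58 and 6.46 in presort samples, groups that were close and did not overlap. The difference was 0.48 ± 0.16 (SE, log2; limma adjusted p = 0.0498), and the call was lost in 13 of the 19 alternatives, with adjusted p up to 0.199. The other, 1438540_at, lay at 7.44, 6.89 and 6.73 in sorted and 4.05, 3.91 and 4.24 in presort samples, with every sorted array above the background level and every presort array far under it. Its difference was 2.95 ± 0.20 (SE, log2; limma adjusted p = 5.94e-05), with 3.39, 2.98 and 2.48 in pools 1, 2 and 3, and with the mean of both probe sets that of the gene was 1.71. The call of 1438540_at was kept in all 17 alternatives run on probe sets, at 1.73 to 3.18 (limma adjusted p at most 0.00285). Col13a1, Col17a1 and Col23a1 were near background, and Col23a1 stood at -0.42 ± 0.14 (SE, log2; limma adjusted p = 0.0577, and 0.0233 with the replicate block).

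The chains of basement membranes, beaded filaments and anchoring fibrils gave no call, where 32.6% of all genes were called. Of the 6 chains of type IV collagen, the scaffold of basement membranes, 5 were near background. Col4a6 lay just above the background level, at 6.73, 6.75 and 6.87 in sorted and 6.52, 6.75 and 6.70 in presort samples, with a difference of 0.13 and a 95% interval of -0.13 to 0.39. Of the type VI chains, which form beaded filaments around cells, Col6a2 was expressed in both groups, at 6.97, 7.78 and 7.31 in sorted and 6.94, 7.51 and 7.37 in presort samples. The groups overlapped, and the difference of 0.08 had an interval of -0.45 to 0.62. Col6a1, Col6a3 and Col6a5 were near background, and Col6a3 stood at -0.50 ± 0.18 (SE, log2; limma adjusted p = 0.0694, and 0.023 with the replicate block). Col6a4 lay at 5.96, 6.19 and 6.25 in sorted and 5.90, 6.44 and 6.81 in presort samples. Col7a1, which encodes the chain of the anchoring fibrils of skin, lay at 6.71, 6.62 and 6.42 in sorted and 6.31, 6.70 and 6.45 in presort samples. In both of these genes the groups overlapped.

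The short chains Col8a1, Col8a2 and Col10a1, the multiplexins Col15a1 and Col18a1, and Col26a1 were near background, with differences from -0.11 to 0.06. Over the 28 chains near background the levels spanned 3.56 to 6.47 and the differences -0.77 to 0.37. None of them was called by limma as first run, and 4 had an unadjusted p under 0.05. Some were called under alternatives, Col1a1, Col6a3 and Col23a1 with the replicate block. At such levels a small difference does not show that the gene did not change. Over all 42 chains the groups did not overlap for 3 chains higher and 10 lower in sorted samples, where 20.9% of all genes were higher and 23.6% lower without overlap.

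Among the genes that modify, fold and export collagen chains, calls went both ways at a share near that of all genes. Of 23 measured genes of collagen biosynthesis and secretion 2 rose, 6 fell and 15 did not pass, so that 34.8% were called against 32.6% of all genes. The median difference was -0.10, against -0.0021 over all genes. Colgalt1, which encodes an enzyme that adds galactose to collagen, stood at 13.46, 12.19 and 12.49 in sorted and 11.23, 10.52 and 10.71 in presort samples, without overlap (1.89 ± 0.33, SE, log2; limma adjusted p = 0.00287). Mia3, which encodes a receptor that loads procollagen for export, rose by 0.59 ± 0.10 (SE, log2; limma adjusted p = 0.00309), a call lost without pool 2 (0.0509) and without probe sets ending in _x_at or _s_at (0.0881). Among the falls, Crtap, which encodes a part of the prolyl 3-hydroxylation complex, stood at -1.60 ± 0.17, and Tmem38b, which encodes a cation channel of the endoplasmic reticulum, at -1.42 ± 0.25 (SE, log2). The lysyl hydroxylase genes Plod3 and Plod1 stood at -1.35 ± 0.13 and -1.30 ± 0.11 (SE, log2). Serpinh1, which encodes the chaperone specific to collagen, was near background on all 6 arrays, at 0.08.

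In the lists of processing, receptors and turnover, every called gene fell as the values were deposited; with each array centred on its median 1 processing and 2 receptor genes were higher, and with quantile normalization 1 processing gene was. The shares called were 18.2% for processing and 30.0% for receptors, and 5 of 10 turnover genes were called, against 32.6% of all genes, of which 18.1% were lower. Of 11 measured genes of collagen processing and crosslinking 2 were called, both near background on all 6 arrays. These were Adamts3, which encodes a procollagen protease, at -0.81 ± 0.12, and Loxl3, which encodes a lysyl oxidase, at -0.32 ± 0.10 (SE, log2), and the call of Loxl3 was lost in 16 of its 19 alternatives. Of 10 measured collagen receptor genes 3 fell. Lair1, which encodes an inhibitory receptor of leukocytes, lay at 6.07, 5.47 and 6.06 in sorted samples, all under the background level, against 8.74, 8.02 and 8.42 in presort samples (-2.53 ± 0.23, SE, log2). The integrin genes Itga1 and Itgb1, whose products pair as a collagen receptor, stood at -1.80 ± 0.19 and -1.62 ± 0.13 (SE, log2). Of 10 measured turnover genes 5 fell, with Mmp9, which encodes a gelatinase, at -3.49 ± 0.22, and Mmp8, which encodes the neutrophil collagenase, at -3.38 ± 0.30 (SE, log2). Timp2, which encodes a protease inhibitor, and Fap, which encodes a fibroblast protease and was near background, stood at -2.70 ± 0.20 and -0.93 ± 0.16 (SE, log2).

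**Figure D4:**
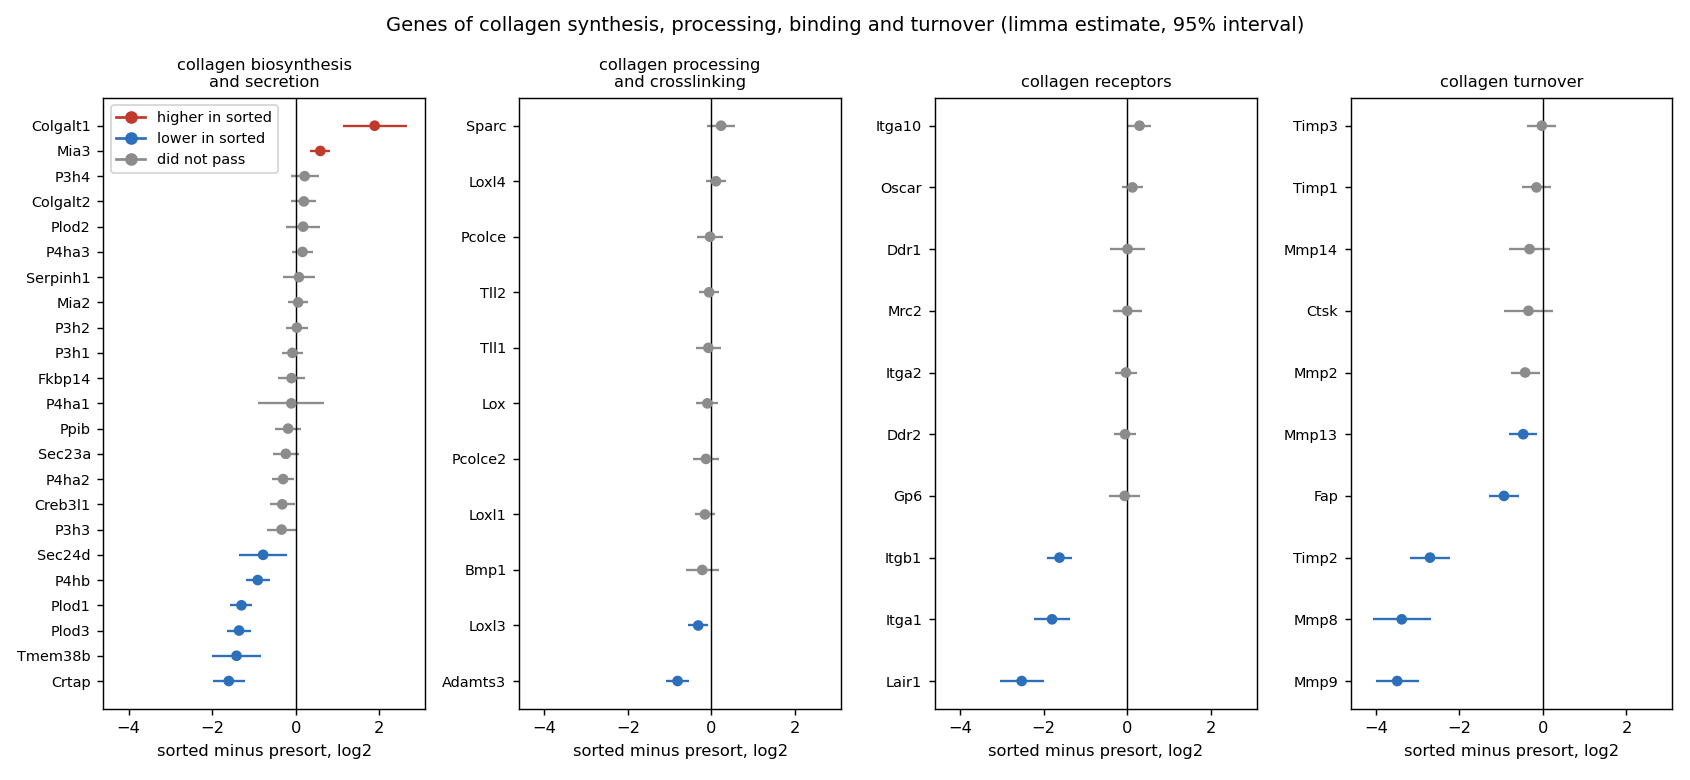
Difference in log2 intensity, sorted minus presort (horizontal axes), of the measured genes (vertical axes) of 4 lists: collagen biosynthesis and secretion, processing and crosslinking, receptors, and turnover; points are limma estimates with 95% intervals, red for higher and blue for lower in sorted samples and grey for genes that did not pass. Colgalt1 and Mia3 are the red points, and Mmp9 at -3.49 and Mmp8 at -3.38 lie farthest to the left.

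Markers of the cells known to make collagen were set beside Col1a2, Col14a1 and Col5a1. Of 10 markers of mesenchymal stroma and fibroblasts 3 fell (Cxcl12, Kitl and Bgn), none rose and 5 were near background, Pdgfra, Pdgfrb and Lepr among them. The 3 falls are 30.0% of the list, where 18.1% of all genes were lower and 32.6% were called in either direction, and the call of Bgn held in 12 of its 19 alternatives. Cxcl12, which encodes a chemokine of marrow stroma, stood at 6.55, 6.88 and 6.29 in sorted and 8.47, 9.75 and 8.76 in presort samples. The summed intensity of the list was 509 to 587 in sorted and 903 to 1639 in presort samples.

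Presort replicate 1, in which Col1a2 was low, had the lowest sum of the 3 presort samples in 9 of the 12 marker lists, the highest for the B lineage and a middle one for the erythroid and neutrophil lists. For the counts of called markers that follow, 14.5% of all genes were higher and 18.1% lower, 32.6% in either direction. The 5 measured osteoblast markers summed to 205 to 212 in sorted and 192 to 317 in presort samples, with 4 near background and no call. Within that list Ibsp, which encodes bone sialoprotein, was lowest in presort replicate 1 (3.52, 3.73 and 3.89 in sorted, 3.85, 7.00 and 5.19 in presort samples), while Alpl, which encodes alkaline phosphatase, was highest there among the presort samples (6.31, 6.31 and 6.29 in sorted, 6.22, 6.11 and 5.97 in presort samples); both were singled out after their values were seen. The 6 endothelial markers summed to 222 to 285 in sorted and 305 to 564 in presort samples. Of these 2 fell, so that 33.3% were called, near the share of all genes called in either direction. They were Tie1 at -1.12 ± 0.13 and Vwf at -1.87 ± 0.59 (SE, log2). The groups of Vwf overlapped, and its call held in 11 of its 19 alternatives. Vwf is also made by megakaryocytes, and of 4 measured markers of megakaryocytes and platelets 3 fell (4 with the replicate block), with a sum of 555 to 1575 in sorted and 1222 to 3978 in presort samples. The 5 mural markers summed to 331 to 548 in sorted and 725 to 1142 in presort samples, but only Acta2 fell, at -1.91 ± 0.34 (SE, log2), while Tagln, near background, rose by 0.41 ± 0.12 (SE, log2) and 3 were not called. All 5 chondrocyte markers were near background, and among them Hapln1 rose by 0.40 ± 0.12 (SE, log2). The calls of Acta2, Tagln and Hapln1 held in 17 of 19, 11 of 19 and 9 of 18 alternatives. That of Acta2 was lost without pool 3 and without probe sets ending in _x_at or _s_at. Of 2 measured adipocyte markers Fabp4 fell, at -2.37 ± 0.37 (SE, log2). The part of these cells in the differences of the collagen chains was not tested.

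**Figure D5:**
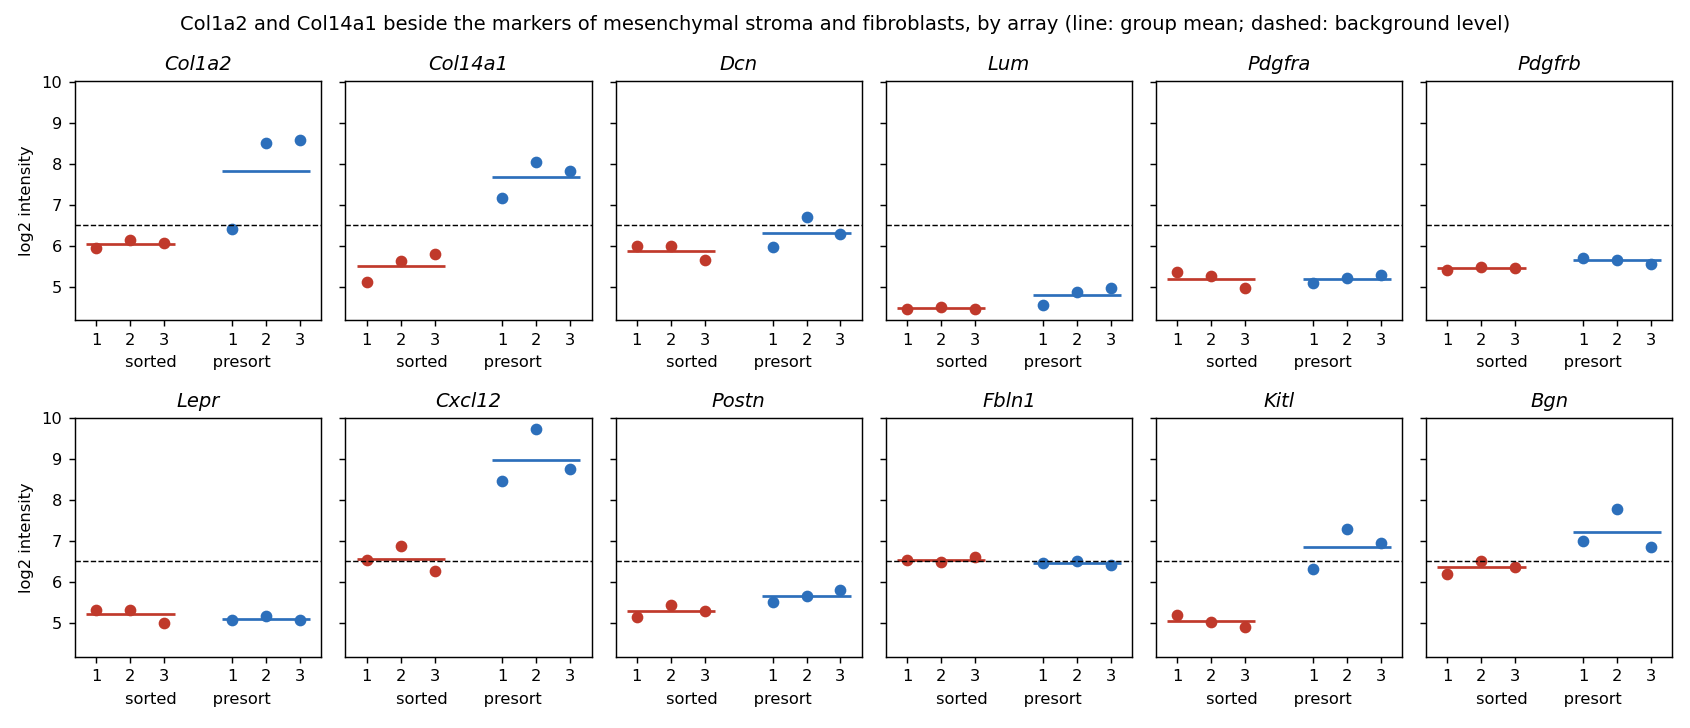
Log2 intensity (vertical axis) of Col1a2, Col14a1 and the 10 markers of mesenchymal stroma and fibroblasts on the 3 sorted arrays (red, left) and the 3 presort arrays (blue, right); lines are group means and the dashed line is the background level of 6.51. Cxcl12, Kitl and Bgn are lower in sorted arrays, as Col1a2 and Col14a1 are, while Pdgfra, Pdgfrb and Lepr stay under the line in both groups.

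Markers of several blood cell lineages, and RNA quality, differed between the groups as well. Of 7 measured B lineage markers 6 rose, where 14.5% of all genes were higher. The summed intensity of the list was 59613 to 68142 in sorted and 10315 to 19747 in presort samples. Vpreb1, the remaining marker, lay lower without passing (-0.77 ± 0.31, SE, log2; limma adjusted p = 0.103), at -1.22, -1.24 and 0.14 in pools 1, 2 and 3. Without sorted replicate 3, or without pool 3, 1 marker of the list was called lower, and with the RNA quality covariate described below 5 rose. All 5 measured erythroid, 6 neutrophil and 6 macrophage markers fell, where 18.1% of all genes were lower. Under the alternatives run, 3 to 5 erythroid, 5 to 6 neutrophil and 5 to 6 macrophage markers fell. The erythroid falls were 3 without presort replicate 1 or 2, without pool 2, and with the RNA quality covariate. None of 4 T cell markers was called in limma and none had an unadjusted p under 0.05, but 1 was called lower without sorted replicate 3 and without pool 3. The neutrophil list summed to 34698 to 57826 in sorted and 119871 to 125608 in presort samples, and the macrophage list to 1083 to 3790 and 11632 to 17737. The 3' control probe set of beta-actin exceeded the 5' one by 3.17, 1.54 and 1.43 (log2) in sorted and by 1.11, 0.95 and 0.81 in presort samples (two-sided exact permutation p = 0.1, the smallest that 3 against 3 allow). With that difference as a covariate Col5a3, Col27a1, Col5a1 and Col14a1 were still called, at 3.86, 2.30, -2.36 and -1.72, while Col1a2 at -1.49 and Col25a1, read by 1421427_at, were not (adjusted p = 0.195 and 0.0953). The part of the blood cell makeup in the differences of Col5a3, Col27a1, Col25a1 and Col5a1 was not tested.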

How the data were processed

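The deposited values are linear intensities, made by the authors with RMA per the submitters' processing notes, with the version not given in the sources used here. They ran from 9.71 to 38492.08 with almost the same distribution on every array, so a change in total RNA per cell leaves no trace. Total RNA was labelled from the 3' end, per the labels' protocols. Log2 was taken with no pseudocount. Symbols come from the platform's annotation, and the Entrez numbers of all 82 collagen probe sets were found in the RefSeq table, with 0 symbols changed.

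Groups were compared on all 6 arrays in R 4.3.3 by a two-sided linear model test (limma 3.58.1, with its functions lmFit and eBayes), with Benjamini-Hochberg adjustment over all 18193 genes, or 34945 probe sets, and a threshold of 0.05. The fit was tested on simulated data. Python 3.11.15 with matplotlib 3.10.9 drew the figures. Replicate numbers pair the samples, since each number is 1 pool per the labels; after removal of the group means, the sorted and presort arrays of a pool correlated over genes at 0.39, 0.20 and -0.03 in pools 1, 2 and 3. The block by pool is an alternative, beside leaving out arrays or pools, other normalizations, probe set rules, a variance trend, array weights, a pseudocount of 32, no dim genes (the lowest 33.3%), and a covariate for RNA quality.

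Named were all chains expressed or called, and up to 4 called members per direction of each partner list. The members and lists were chosen with earlier results of these data known. The gene that drives the reporter is not reported here.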

Additional observations from a re-analysis of the deposited data

How the results depend on the processing

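Of the 6 called chains, Col5a3, Col27a1, Col5a1 and Col14a1 kept direction and call under all 19 alternatives, between 2.06 and 4.13, 1.79 and 2.38, -2.59 and -2.08, and -2.41 and -1.07 on the log2 scale. The 3 higher chains became 6 with each array centred on its median, and 2 to 3 when an array or pool was left out. Among the fits with an array or pool left out, Col25a1 passed only without presort replicate 2. Col9a1 passed without sorted replicate 1 and without pool 1, and Col4a4 without sorted replicate 3. The 3 lower chains became 6 with the replicate block, which draws on the pairing by pool, 6 with an intensity trend and a robust prior, and 2 to 5 when an array or pool was left out, with 5 without presort replicate 1 and 5 without pool 1. The chains expressed in sorted samples, 8 at the 95th percentile of the background probe sets, were 16 at the 90th, 2 at the 99th and 5 with the mean of probe sets, and the 7 in presort samples were 14, 1 and 4. The chains near background stayed within 1.5 times of 28 under the alternatives run. Of the 36 chains that were not called, 20 changed sign under at least 1 alternative, 10 of them with median centring and 8 with the RNA quality covariate. Among those expressed in a group, with the mean of probe sets Col4a6 stood at -0.0268 and Col22a1 at -0.15, and with an array or pool left out Col6a2 ran from -0.13 to 0.27 (-0.0115 without pool 2), Col16a1 from -0.0185 to 0.11 and Col22a1 from -0.0487 to 0.16 (-0.0366 without pool 1). The cause was not tested. For the single genes and probe sets set against each alternative, 911 values kept direction and call, 96 lost the call, 27 gained one and 9 changed sign. Genes of biosynthesis and secretion that rose, 2, were 4 with median centring, and 1 without pool 2 or without probe sets ending in _x_at or _s_at. The 2 processing genes that fell were 1 under 15 alternatives and 0 with dim genes left out, and the 5 turnover genes that fell were 3 with dim genes left out. Over the 42 chains and the called partner and stromal marker genes that are named, the replicate block changed the calls of Col1a1, Col6a3, Col9a1 and Col23a1, given above, and of Loxl3 (adjusted p = 0.0733), and no other; it also brought a call for Ibsp (adjusted p = 0.0433). Signal near background limits what can be said of most chains.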
